A study of Mus musculus with 24 samples.

Results

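The comparison described here set blood stem and progenitor cells that lack the Fanconi anaemia gene Fancg against wild-type cells, both taken from mice given poly(I:C). It rests on 6 of the 24 libraries of the study, 3 labelled FancgKO with poly(I:C) and 3 labelled WT with poly(I:C), chosen by genotype and treatment label. Each group holds the replicate numbers 6, 7 and 8, so the libraries form 3 pairs. Differences were tested in 12628 genes of the 26267 in the table, those that reached a normalised count of 10 in 2 or more libraries.

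The cells were LSK cells, a mouse bone marrow fraction sorted as negative for lineage markers and positive for Sca-1 and Kit, and their polyadenylated RNA was sequenced. The other 18 libraries are FancgKO (4) and WT (4) with PBS, FancgKO_Mdm4Tg (2) and Mdm4Tg (2) with poly(I:C), and FancgKO_Mdm4Tg (3) and Mdm4Tg (3) with PBS, where Mdm4Tg stands for an Mdm4 transgene. The labels used here give neither the deleted exons of Fancg, the promoter of the transgene, the dose of poly(I:C) nor the time between injection and sorting. They also state no animal, age or sex for a library, so the p-values reflect the spread among these libraries alone, which may be technical.

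Fancg encodes an adaptor of the Fanconi core complex, a nuclear ubiquitin ligase that marks FANCD2 and FANCI at stalled replication forks so that DNA interstrand crosslinks can be repaired. Blood stem cells depend on this pathway, and its loss in people leads to bone marrow failure. Poly(I:C) is a synthetic double-stranded RNA that is sensed as viral, triggers type I interferon and drives resting stem cells into division. In mice lacking other Fanconi genes, such forced division is known to bring DNA damage and stem cell loss.

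The 6 libraries held 1697596 to 8178648 reads, and pair 7 was the shallowest, with 2300578 reads for FancgKO and 1697596 for WT. The defining markers of the sort were present. Kit lay between 1502 and 2075 normalised counts in FancgKO libraries and between 1594 and 1800 in WT libraries, and Cd34 lay between 1266 and 1714 in FancgKO and between 1153 and 1524 in WT. Ly6a, which encodes the Sca-1 antigen, was low, at 22.4 to 28.2 in FancgKO and 16.3 to 41.0 in WT. The T cell gene Cd3e and the stromal gene Lepr were at 0 in all 6 libraries, and Ms4a1, Ly6g and Cd8a stayed at 1.14 or less.

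In pairs 6 and 8 the libraries of one number resembled each other more than libraries of one genotype did, while pair 7 lay within the range among libraries of one genotype. On the log2 scale the correlation across genes was 0.982, 0.959 and 0.988 within pairs 6, 7 and 8, against 0.937 to 0.963 among FancgKO libraries and 0.946 to 0.963 among WT libraries. Both libraries of pair 8 were low in immediate early genes, transcription factors such as Fos and Jun that are switched on within minutes of cell stress. The summed normalised count of the 19 tested members was 6496, 11731 and 913 in FancgKO libraries 6, 7 and 8, and 8583, 11238 and 959 in WT libraries 6, 7 and 8. Among the 6 libraries, only those of pair 8 carry a suffix in their sample titles, whose meaning the labels do not give. Over all 24 libraries the sum ran from 729 to 2398 with this title suffix and from 6496 to 17068 without it. The low level therefore followed the suffix and was not particular to pair 8.

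Transcripts of the sex chromosomes did not match within pairs 6 and 7. Xist, the RNA that silences one X chromosome in female cells, stood at 13767, 363 and 0 in FancgKO libraries 6, 7 and 8, and at 5943, 20207 and 0.313 in WT libraries 6, 7 and 8. The Y-linked helicase gene Ddx3y stood at 0.999, 365 and 495 in FancgKO libraries 6, 7 and 8, and at 223, 0 and 491 in WT libraries 6, 7 and 8. FancgKO library 7 and WT library 6 therefore held transcripts of both kinds, FancgKO library 6 and WT library 7 were almost purely Xist-positive, and pair 8 was purely Y-positive on both sides. The part of these differences in the values below was not tested beyond the alternatives in the closing section.

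**Figure D1:**
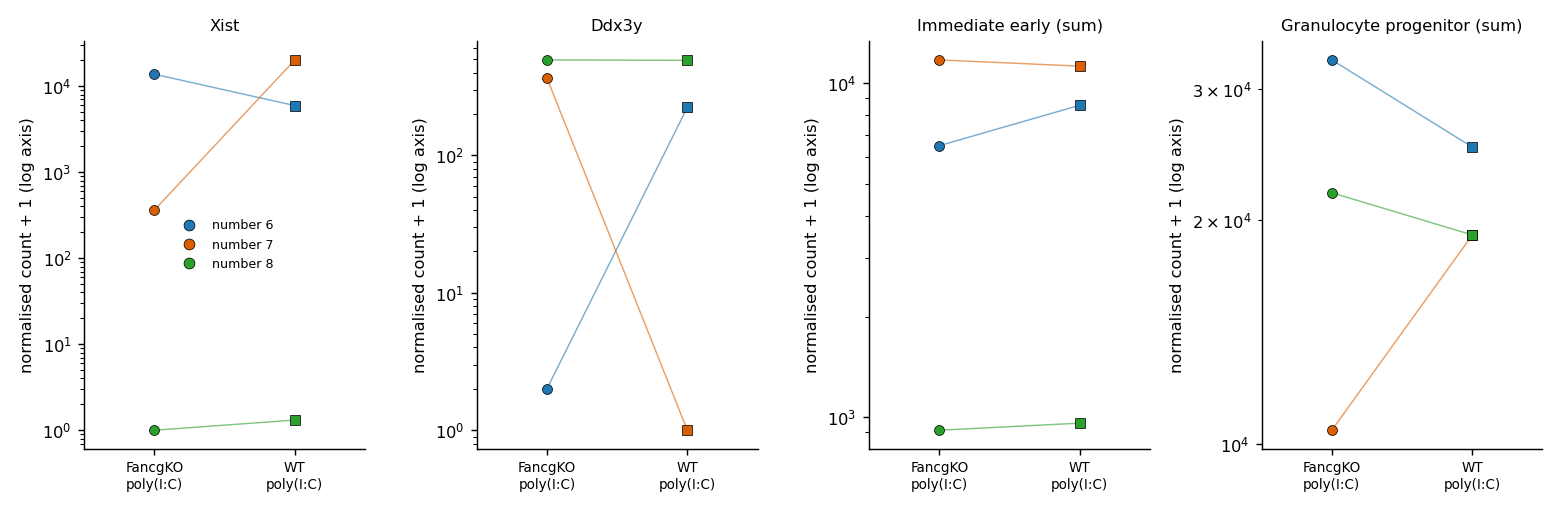
Normalised count + 1 (log axis) of Xist and Ddx3y and the summed count of 19 immediate early and 19 granulocyte genes in the 3 FancgKO libraries (circles) and the 3 WT libraries (squares) with poly(I:C); colours and lines mark libraries of one replicate number. The immediate early sum is at 913 and 959 in pair 8 and at 6496 or more elsewhere, and granulocyte genes are lowest in FancgKO library 7, at 10430.

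The deleted gene was read first. Fancg (ENSMUSG00000028453, chromosome 4 from 43002343 to 43010506, mm10) had 49.4, 59.7 and 48.9 normalised counts in FancgKO libraries 6, 7 and 8, against 68.4, 78.4 and 70.1 in WT libraries. Every FancgKO library lay below every WT library, yet transcript from the locus was far from absent. On the log2(normalised count + 1) scale, used for all differences below, FancgKO minus WT was -0.45 ± 0.27 (SE), with a 95% interval of -1.01 to 0.11 and a limma p of 0.109 before adjustment, or 0.057 with the replicate number as a block. With PBS the difference was -0.70 ± 0.24. For FancgKO_Mdm4Tg against Mdm4Tg it was -0.23 with poly(I:C) and -0.06 with PBS. Among 8 further pairs of equal number, treatment and transgene state, Fancg was lower in 6 and higher in 2. Over the whole series the 12 libraries labelled FancgKO, with or without the transgene, ran from 26.1 to 71.4. The other 12 ran from 41.3 to 78.4, so the ranges overlapped. The table gives 1 total over the gene, so it cannot show whether the deleted part is missing, and the value is no check of the genotype labels.

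No gene differed between FancgKO and WT cells after poly(I:C) at an adjusted p under 0.05. limma called 0 of 12628 genes (0%), and its smallest p before adjustment was 0.00157. Before adjustment 46 genes had p under 0.05, of which 23 were higher in FancgKO (0.182% of genes) and 23 lower (0.182%). If p-values were spread evenly, a share of 0.05 of all genes would fall there, so the p-values of this fit ran high. The fit had no term for the replicate number, and its median standard error was 0.279, against 0.205 with the replicate block. The reason for the shortfall was not tested. edgeR and DESeq2 on the recovered reads also called 0 genes, with 56 and 44 at an unadjusted p under 0.05, and limma with the replicate block called 0, with 126. With 3 libraries against 3, an exact permutation test of a single gene cannot go below 0.1, and one over 3 pairs cannot go below 0.25.

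A count of 0 does not show that the cells were alike, since the intervals were wide for low genes. The 95% interval reached a median of 0.577 to either side of a gene's log2 difference. It reached 0.377 for the 2553 genes with a mean of 200 to 1000 normalised counts, 0.482 for the 4447 genes at 50 to 200 and 1.28 for the 1584 genes under 10. The median size of the difference itself was 0.0564 at 200 to 1000 counts and 0.0863 at 50 to 200 counts. FancgKO libraries all lay above WT libraries in 176 genes (1.39%) and all below in 168 (1.33%). They were higher within all 3 pairs in 1396 genes (11.1%) and lower within all 3 pairs in 1407 (11.1%).

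Among the genes whose groups stood apart, Plag1 was much lower in FancgKO. Plag1 encodes a zinc-finger transcription factor that drives growth genes such as Igf2 and is mostly active before birth. It lies on chromosome 4 from 3900996 to 3938423 (mm10), 39.09 Mb from Fancg. It had 8.49, 19.5 and 15.2 normalised counts in FancgKO libraries 6, 7 and 8, against 43.7, 42.9 and 34.4 in WT libraries. The groups did not overlap, and the log2 difference was -1.49 ± 0.44 (95% interval -2.39 to -0.59). The limma adjusted p was 1, with 0.00243 before adjustment and 1.1e-04 before adjustment with the replicate block.

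The opposite pattern was seen for Tjp1, which encodes ZO-1, the scaffold protein of tight junctions, on chromosome 7 from 65296165 to 65527781. It had 64.4, 96.6 and 73.2 normalised counts in FancgKO libraries 6, 7 and 8, against 40.4, 26.6 and 51.9 in WT libraries. No FancgKO value reached down to a WT value, and the log2 difference was 0.99 ± 0.34 (95% interval 0.28 to 1.70, limma adjusted p = 1). Sdc1, the gene of the heparan sulphate proteoglycan syndecan-1, on chromosome 12 from 8771323 to 8793715, was at 6.49, 3.26 and 6.83 in FancgKO libraries, against 14.8, 13.3 and 15.0 in WT libraries. Its difference was -1.29 ± 0.56 (95% interval -2.45 to -0.13, limma adjusted p = 1), again without overlap.

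These 3 genes kept their direction in the 18 libraries outside the comparison. Plag1 and Sdc1 were lower, and Tjp1 higher, in the library lacking Fancg in 8 of 8 further pairs of equal number, treatment and transgene state. For Tjp1 the 12 libraries lacking Fancg ran from 62.1 to 135, against 17.9 to 52.0 in the 12 with Fancg, so the ranges did not touch in the whole series. For Plag1 they ran from 8.49 to 49.0, against 34.4 to 167, and for Sdc1 from 3.26 to 24.2, against 13.3 to 32.4. Averaged over the 18 other libraries, loss of Fancg gave a log2 difference of -1.73 ± 0.26 for Plag1 (limma adjusted p = 0.0141), 1.30 ± 0.21 for Tjp1 (limma adjusted p = 0.0148) and -1.22 ± 0.34 for Sdc1 (limma adjusted p = 1).

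That averaged contrast was chosen after the values had been seen, and Plag1 and Tjp1 were already known to differ in other comparisons of these data. They were the only 2 genes it called (0.0158% of those tested). With the replicate block it called 15 genes (0.119%), of which 7 were higher and 8 lower in libraries lacking Fancg. In the poly(I:C) comparison 14 of these 15 had the same sign, the exception being Emg1 at -0.02 ± 0.17, and in 5 of them the FancgKO and WT libraries did not overlap (2 upward and 3 downward, against 1.39% and 1.33% of all genes). Sdc1 was one of the 15 (limma adjusted p = 0.0150 with the replicate block). The mitotic kinase gene Ttk was among these 5, with 182, 198 and 194 normalised counts in FancgKO libraries 6, 7 and 8, against 176, 154 and 165 in WT libraries. Eda2r, an X-linked p53 target encoding a death receptor of the tumour necrosis factor family, differed by 0.64 ± 0.58 with poly(I:C), against 1.90 ± 0.35 over the other 18 libraries.

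**Figure D2:**
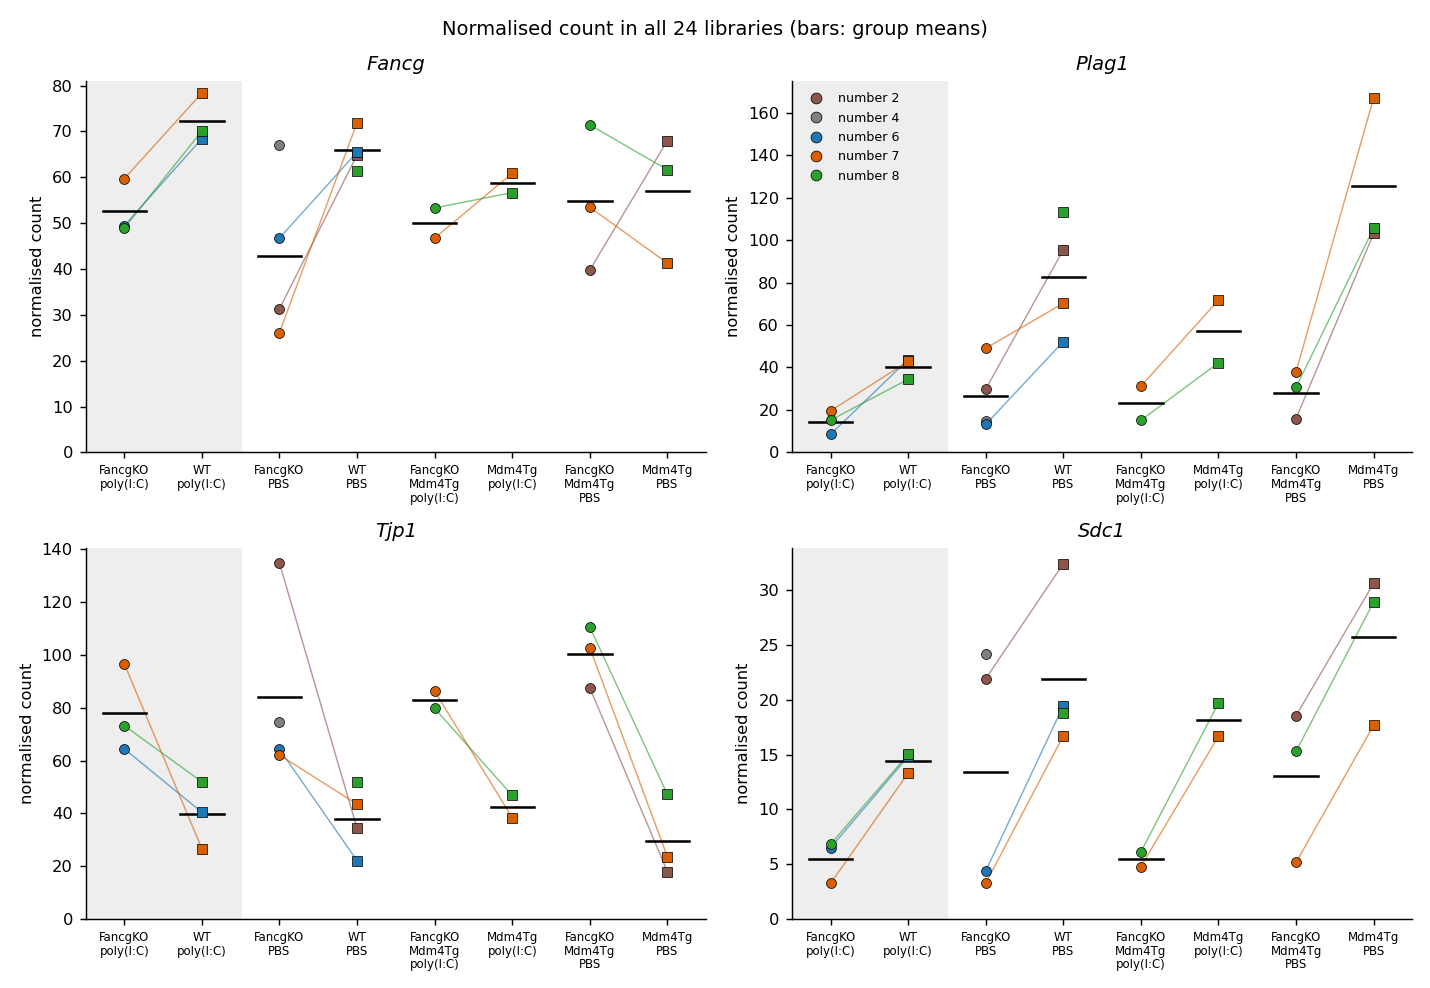
Normalised count of Fancg, Plag1, Tjp1 and Sdc1 in all 24 libraries; shading marks FancgKO and WT with poly(I:C), circles are libraries lacking Fancg, squares libraries with Fancg, bars group means, and lines join libraries of one replicate number. Tjp1 is at 62.1 or more in every library lacking Fancg and at 52.0 or less in every other library.

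Among genes with a mean of at least 50 normalised counts, the 10 smallest p-values in each direction are given next, none of them past the adjusted threshold (limma adjusted p = 1 for all 20). On the higher side, Slc43a3, a purine nucleobase transporter gene, had the tightest estimate. It stood at 329, 332 and 358 in FancgKO libraries 6, 7 and 8, against 254, 244 and 290 in WT libraries, a log2 difference of 0.37 ± 0.12 without overlap. Numb, the gene of an endocytic adaptor that restrains Notch signalling, stood at 59.9, 71.6 and 57.7 in FancgKO libraries, against 37.9, 47.3 and 44.4 in WT libraries. Its difference was 0.53 ± 0.18, again without overlap.

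Cd244, which encodes the SLAM-family receptor 2B4 of progenitors and natural killer cells, had 65.9, 130 and 106 normalised counts in FancgKO libraries 6, 7 and 8, against 51.9, 63.6 and 84.5 in WT libraries. FancgKO was above WT in each pair, but the ranges overlapped (0.56 ± 0.30). Sbds, a ribosome maturation gene mutated in Shwachman-Diamond syndrome, was 0.42 ± 0.22 higher. Zfp426, Rinl, Ccdc117, Ttc7b and Dennd4c lay between 0.28 and 0.41, and the groups were apart in all of these but Ccdc117. In the 8 further pairs Ttc7b was higher in 7, Slc43a3 and Ccdc117 in 6, Numb, Rinl, Dennd4c and Cd244 in 4, Sbds in 3 and Zfp426 in 1.

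On the lower side, Grb10 had the smallest p. It is an imprinted gene on chromosome 11 from 11930508 to 12038683 and encodes an adaptor that dampens receptor tyrosine kinase signalling in stem cells. It had 112, 64.0 and 81.2 normalised counts in FancgKO libraries 6, 7 and 8, against 189, 148 and 105 in WT libraries. FancgKO minus WT was -0.75, -1.19 and -0.36 in pairs 6, 7 and 8, while the groups overlapped between FancgKO library 6 and WT library 8. The difference was -0.77 ± 0.27, with a 95% interval of -1.32 to -0.22.

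Trib2, a pseudokinase gene whose product promotes breakdown of C/EBP alpha, had 77.9, 32.6 and 114 counts in FancgKO libraries 6, 7 and 8, against 161, 120 and 102 in WT libraries. Its difference of -0.91 ± 0.43 came from pairs 6 and 7 and turned to the other side in pair 8. Gmfg, an actin-remodelling gene of blood cells, had 84.4, 95.5 and 76.6 in FancgKO libraries, against 143, 115 and 99.5 in WT libraries (-0.46 ± 0.18, without overlap). Tfpi, the inhibitor of the tissue factor pathway of clotting, was at -0.50 ± 0.24.

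The other members of this group were Snrpd2, a core spliceosome gene, at -0.53 ± 0.27, Rpl37 at -0.49 ± 0.27, Ifitm1 at -0.48 ± 0.25, Bivm at -0.40 ± 0.20, the Hippo pathway kinase gene Stk3 at -0.35 ± 0.17 and the centriole gene Spice1 at -0.29 ± 0.16. For Rpl37, Bivm, Stk3 and Tfpi every FancgKO library lay below every WT library. In the 8 further pairs Gmfg, Tfpi and Spice1 were lower in 7, Trib2 and Ifitm1 in 6, Bivm in 5, Rpl37 in 4, Grb10 and Snrpd2 in 3 and Stk3 in 2. Some less abundant genes, named after their values were seen, had larger differences. Ptpn14, a phosphatase gene that p53 induces, had 29.0, 10.9 and 34.5 counts in FancgKO libraries 6, 7 and 8, against 67.6, 51.8 and 43.8 in WT libraries (-1.23 ± 0.43). With PBS its difference was -0.10 ± 0.38.

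**Figure D3:**
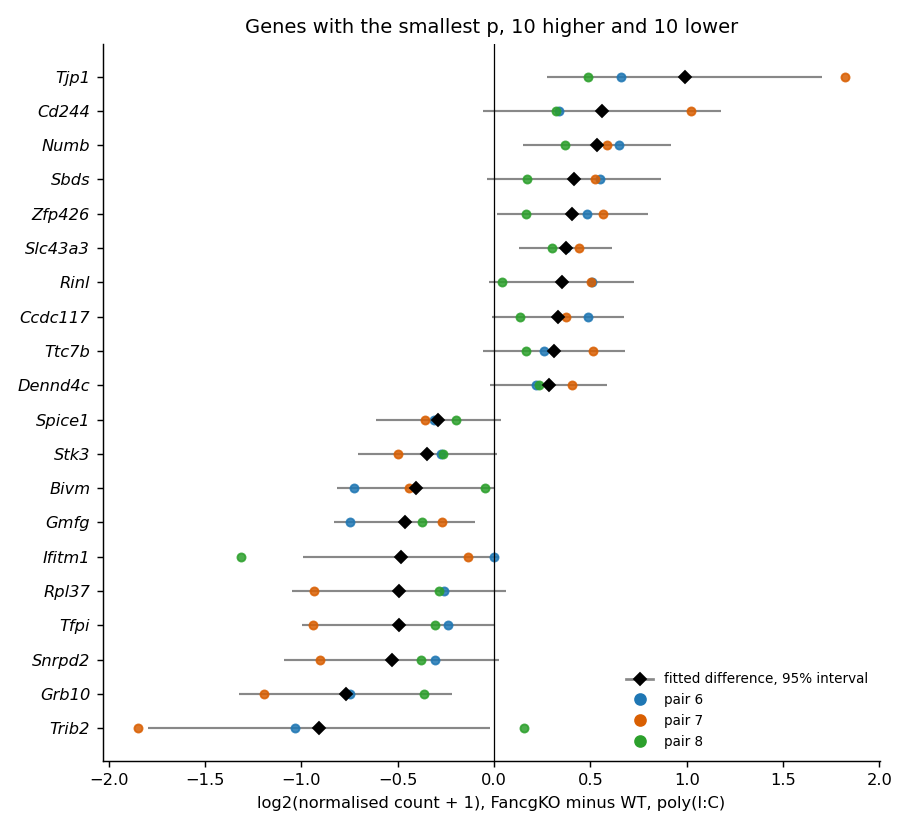
Log2 difference, FancgKO minus WT with poly(I:C), of the 10 higher and 10 lower genes with the smallest p among those with a mean of at least 50 normalised counts; diamonds are fitted differences, lines 95% intervals, and coloured points the values of pairs 6, 7 and 8. Pair 7 is the most extreme for Tjp1, Cd244, Grb10 and Trib2.

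Interferon-stimulated genes, the antiviral programme downstream of the type I interferon receptor, lay slightly lower in FancgKO cells. Of 41 tested genes 6 were higher and 35 lower, with a median log2 difference of -0.22, while over all 12628 genes 6323 were higher and 6303 lower, with a median of 0.00. FancgKO libraries all lay below WT libraries in 6 of the 41 (14.6%, against 1.33% of all genes) and above in 0. They were lower within all 3 pairs in 14 (34.1%, against 11.1%) and higher within all 3 in 0. The summed count of the list was 4137, 3946 and 4128 in FancgKO libraries 6, 7 and 8, and 4189, 4822 and 4698 in WT libraries.

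The pairs contributed unequally, with list medians of -0.01, -0.42 and -0.20 in pairs 6, 7 and 8. Pair 6 was therefore level, and WT library 7, the library with the highest sum, is also the shallowest of the 6. No member passed the adjusted threshold. Usp18, which encodes a brake on the type I interferon receptor, had the smallest p, with 21.5, 15.2 and 15.2 counts in FancgKO libraries 6, 7 and 8, against 37.9, 38.4 and 19.7 in WT libraries. Its difference was -0.81 ± 0.34, negative in each pair, with overlap between FancgKO library 6 and WT library 8.

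Irf7, the master regulator of later interferon production, had 24.5, 18.5 and 16.3 counts in FancgKO libraries 6, 7 and 8, against 29.7, 34.0 and 25.7 in WT libraries. No FancgKO library reached a WT value, and the difference was -0.58 ± 0.46. Irf9, the DNA-binding part of the interferon-activated complex ISGF3, had 118, 137 and 122 counts in FancgKO libraries, against 136.9, 188 and 137.0 in WT libraries (-0.28 ± 0.17). Rtp4, Rsad2, Ifi204 and the RNA sensor gene Ifih1 were the other members without overlap, at -0.42, -0.35, -0.61 and -0.18 in that order.

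Ifitm3, which encodes a membrane protein that blocks virus entry, had 230, 150 and 167 counts in FancgKO libraries, against 236, 206 and 247 in WT libraries, with a difference of -0.35 ± 0.20. Its neighbour Ifitm1 differed mainly in pair 8, where FancgKO had 96.0 and WT 240. Isg20, Bst2 and Ifi35 lay within 0.04 of 0. The median of the same 41 genes was 0.01 for FancgKO_Mdm4Tg against Mdm4Tg with poly(I:C), and -0.05 for FancgKO against WT with PBS. Whether these medians differ was not tested.

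The programme was also set against its PBS level. The median log2 difference of the 41 genes between poly(I:C) and PBS was -0.16 in FancgKO and 0.03 in WT, and the summed count with PBS ran from 3998 to 5002 in FancgKO and from 4355 to 5468 in WT. The interferon-inducible GTPases had 2 genes higher and 12 lower of 14, with a median of -0.12, but pair medians of 0.26, -0.45 and -0.06, and in 0 of them did the groups stand apart. The sensors of double-stranded RNA and the interferon receptors had 12 higher and 8 lower of 20, with a median of 0.01. Class I antigen presentation genes had 7 higher and 9 lower of 16 and a median of -0.05.

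**Figure D4:**
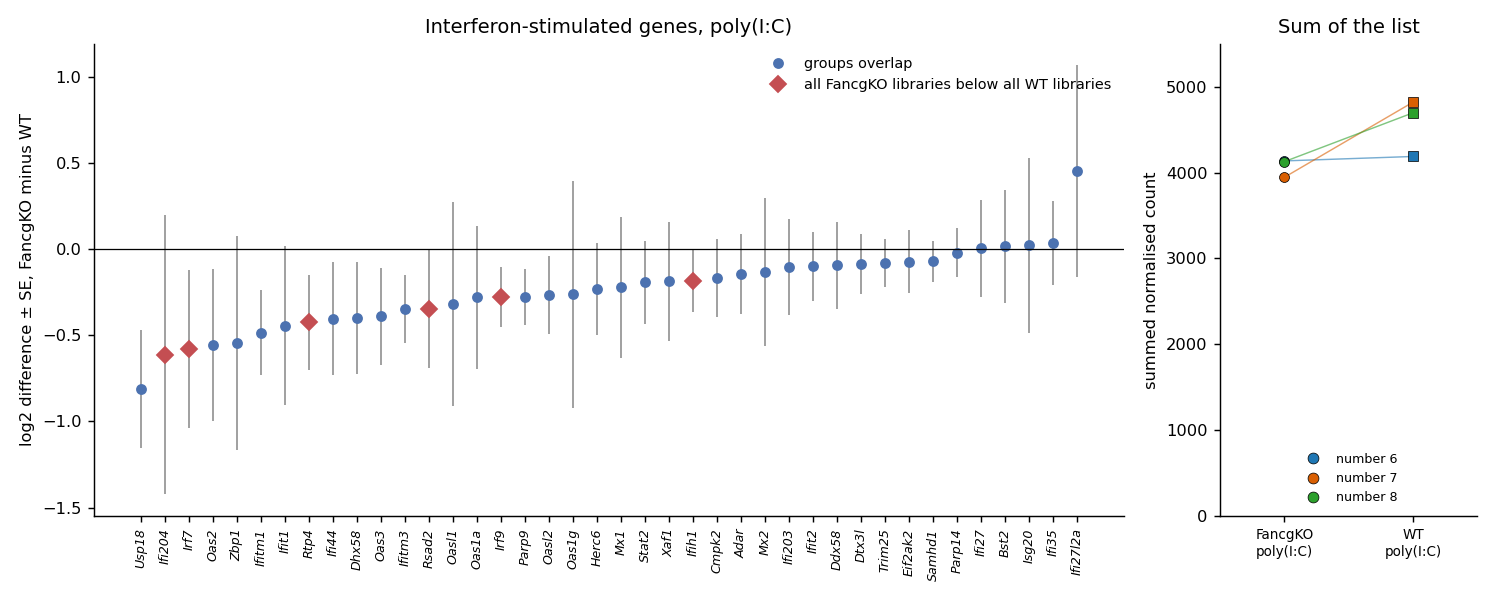
Left, log2 difference ± SE, FancgKO minus WT with poly(I:C), of 40 of the 41 tested interferon-stimulated genes, with red diamonds where every FancgKO library lay below every WT library. Right, summed normalised count of the list per library, circles FancgKO and squares WT, where FancgKO runs from 3946 to 4137 and WT from 4189 to 4822.

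Targets of p53, the tumour suppressor that answers unrepaired DNA damage, were examined as an arrest and repair list and an apoptosis list. Arrest and repair targets lay slightly higher in FancgKO cells, with 16 higher and 4 lower of 20, a median of 0.20, and pair medians of 0.21, 0.06 and 0.08. They were higher within all 3 pairs in 7 of 20 (35%, against 11.1% of all genes), and the groups stood apart upward in 1 gene (5%, against 1.39%). That gene was Cdkn1a, encoding the cell cycle inhibitor p21, with 33.0, 32.6 and 33.0 counts in FancgKO libraries 6, 7 and 8, against 28.04, 29.6 and 21.9 in WT libraries. Its difference was 0.31 ± 0.47, with a 95% interval of -0.66 to 1.28.

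Polk, a translesion polymerase gene, was at 64.9, 76.0 and 98.6 in FancgKO libraries 6, 7 and 8, against 42.9, 75.4 and 72.3 in WT libraries (0.35 ± 0.22). Xpc, which recognises damage in nucleotide excision repair, was at 0.13 ± 0.14, and Ccng1 and Zmat3 at 0.18 and 0.51. Ddb2, another excision repair gene, was at -0.27. The summed count of the list was 2135, 2271 and 2229 in FancgKO libraries 6, 7 and 8, and 1881, 2332 and 2077 in WT libraries, so the groups overlapped and pair 7 went the other way. With PBS the median of this list was -0.06, and for FancgKO_Mdm4Tg against Mdm4Tg with poly(I:C) it was 0.04, with 11 higher and 9 lower. Trp53 itself differed by 0.11 ± 0.20, Mdm2 by 0.09 ± 0.14 and Mdm4, the partner that restrains p53, by 0.09 ± 0.15.

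The apoptosis targets had 10 genes higher and 8 lower of 18, with a median of 0.02, against a median of 0.18 for the same genes with PBS. Ptpn14, described above, belongs to this list and was its only member with an unadjusted p under 0.05. Pmaip1, the gene of the BH3-only protein Noxa, had 38.0, 8.68 and 21.2 counts in FancgKO libraries 6, 7 and 8, against 26.4, 25.1 and 17.5 in WT libraries. It was higher in FancgKO in pairs 6 and 8 and lower in pair 7, with a difference of -0.22 ± 0.52. Bax stood at 46.4, 29.3 and 25.0 in FancgKO libraries, against 32.2, 19.2 and 22.5 in WT libraries, and Bbc3, the gene of the BH3-only protein Puma, differed by 0.10 ± 0.43. Phlda3, an inhibitor of AKT, was the only member whose groups stood apart upward (5.56% of the list, against 1.39% of all genes). Ptpn14 was the only one apart downward (5.56%, against 1.33%). Phlda3 was at counts of 6.99, 4.34 and 4.93 in FancgKO libraries and 2.47, 0 and 2.82 in WT libraries. These values rest on few reads, since 1 read stood for 0.313 (WT library 8) to 1.48 (WT library 7) normalised counts.

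The remaining Fanconi genes were split evenly. Of 16 core complex, FANCD2-FANCI and deubiquitinase genes 8 were higher and 8 lower, with a median of -0.00, and the groups stood apart in 0. Fancd2, whose product is ubiquitinated by the core complex, had 206, 223 and 229 counts in FancgKO libraries 6, 7 and 8, against 223, 240 and 194 in WT libraries, a difference of 0.01 ± 0.17. Fanca, which binds FANCG directly, differed by 0.05 ± 0.33 and Fanci by -0.01 ± 0.16. The widest members were Faap20, a core complex partner of FANCA, at 0.44 ± 0.30 and Ube2t, the ubiquitin-conjugating enzyme gene of the pathway, at -0.19 ± 0.26.

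Crosslink repair and homologous recombination genes had 24 higher and 14 lower of 38, a median of 0.03, and no gene with groups apart. Rad54b, a recombination motor gene that lies on chromosome 4 too, had 77.9, 113 and 93.7 counts in FancgKO libraries 6, 7 and 8, against 79.2, 76.9 and 76.0 in WT libraries (0.27 ± 0.20). Genes that clear aldehydes, a natural source of crosslinks, had 2 higher and 6 lower of 8 and a median of -0.05. Among these Adh5, the formaldehyde dehydrogenase gene, differed by -0.06 ± 0.17.

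Division genes had list medians close to 0. S phase genes had 19 higher and 22 lower of 41 (median -0.01), mitosis genes 21 higher and 14 lower of 35 (median 0.03) and replication histones 30 higher and 28 lower of 58 (median 0.01). In mitosis the groups stood apart upward in 3 of 35 genes (8.57%, against 1.39%), among them Ttk and the kinetochore gene Cenpf, at 514, 524 and 513 counts in FancgKO libraries 6, 7 and 8, against 510, 485 and 426 in WT libraries (0.13 ± 0.11). Genes of G1 and quiescence had 12 higher and 5 lower of 17 (median 0.03). There Ccnd1, the gene of cyclin D1, was at 61.4, 82.5 and 174 in FancgKO libraries, against 62.7, 39.9 and 96.7 in WT libraries, level in pair 6 and higher in pairs 7 and 8 (0.61 ± 0.35).

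Ribosomal protein genes were lower by a small amount, with 4 higher and 76 lower of 80 and a median of -0.12. They were lower within all 3 pairs in 32 of 80 (40%, against 11.1%), but the pair medians were 0.01, -0.27 and -0.13, and the groups stood apart downward in 2 (2.5%, against 1.33%). Rpl37 had 774, 427 and 712 counts in FancgKO libraries 6, 7 and 8, against 926, 818 and 866 in WT libraries. The summed list was 56897, 42911 and 45064 in FancgKO libraries, and 56457, 51025 and 48924 in WT libraries, so pair 6 was level. With PBS the same list had 14 genes higher and 66 lower in FancgKO than in WT, with a median of -0.09. For FancgKO_Mdm4Tg against Mdm4Tg its median was -0.03 with poly(I:C) and 0.15 with PBS. Many of these genes have near-identical pseudogenes, and how the authors' counting treated shared reads is not given in the sources used here. Subunits of oxidative phosphorylation had 19 higher and 54 lower of 73 with a median of -0.07, and glycolysis genes 14 higher and 2 lower of 16 with a median of 0.07.

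Monocyte, granulocyte and erythroid genes turned from one side to the other between pairs. Monocyte genes had a median of -0.24, made of 0.19, -1.17 and 0.42 in pairs 6, 7 and 8, and granulocyte progenitor genes a median of -0.09, made of 0.48, -0.86 and 0.15. FancgKO library 7 was low in both lists, and its granulocyte sum was 10430, against 32795 and 21743 in FancgKO libraries 6 and 8 and 19071 to 25046 in WT libraries. Plac8, a gene of early myeloid cells, had 2914, 1109 and 2668 counts in FancgKO libraries 6, 7 and 8, against 2444, 2016 and 3098 in WT libraries. In bulk RNA, fewer cells of a type and less RNA per cell cannot be told apart.

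Erythroid genes had 4 higher and 16 lower of 20 and a median of -0.25, made of -0.61, -0.50 and 0.41. Ermap, a blood group gene of red cell precursors, had 129, 29.3 and 163 counts in FancgKO libraries 6, 7 and 8, against 266, 133 and 95.4 in WT libraries. Megakaryocyte genes had 6 higher and 17 lower of 23 (median -0.08), with pair medians of one sign, -0.12, -0.22 and -0.08. They were lower within all 3 pairs in 6 (26.1%, against 11.1% of all genes), and the groups stood apart in 0.

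Stem cell genes had 17 higher and 20 lower of 37 and a median of -0.01, with pair medians of -0.13, 0.20 and -0.29, and Grb10 was the only one with an unadjusted p under 0.05. Lymphoid progenitor genes had 14 higher and 8 lower of 22 (median 0.07). Dntt, the terminal transferase gene that marks lymphoid priming, had 57.9, 192 and 314 counts in FancgKO libraries 6, 7 and 8, against 52.8, 76.9 and 363 in WT libraries, so that the pair number set its level more than the genotype. Class II antigen presentation genes had 7 higher and 1 lower of 8 and a median of 0.19, made of 0.21, 0.78 and -0.16. Mast cell and basophil genes had 6 higher and 7 lower of 13 (median -0.04). Of other cell types the sort should remove, 4 B cell genes were high enough to test (3 higher and 1 lower, median 0.22), as were 4 stromal and endothelial genes (2 higher and 2 lower, median 0.00), and 0 T and natural killer cell genes.

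NF-kB and inflammation genes had 6 higher and 21 lower of 27 (median -0.12), with Nfkbia, the inhibitor that NF-kB itself induces, at 139, 66.2 and 69.8 in FancgKO libraries 6, 7 and 8, against 160, 129 and 78.8 in WT libraries (-0.44 ± 0.42). Immediate early genes had 4 higher and 15 lower of 19 (median -0.11). In the fit without the replicate block, leaving out 1 library moved that median widely, to -1.11 without WT library 8 and to 0.75 without FancgKO library 8, both from the pair in which these genes were low. The unfolded protein response had 5 higher and 15 lower of 20 (median -0.04), oxidative stress defence 7 higher and 13 lower of 20 (median -0.06), TGF-beta signalling 11 higher and 9 lower of 20 (median 0.05) and the BCL2 family 4 higher and 6 lower of 10 (median -0.07).

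**Figure D5:**
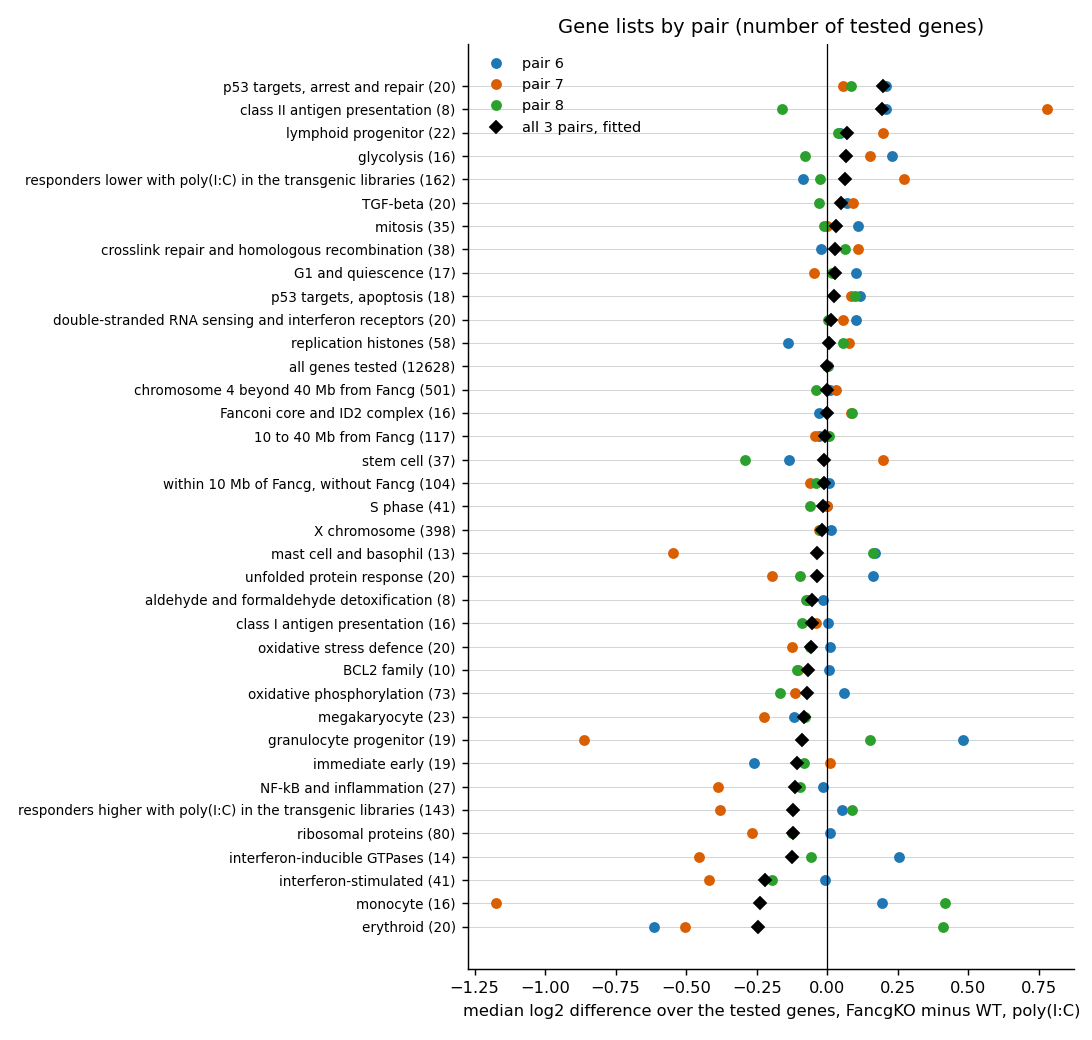
Median log2 difference, FancgKO minus WT with poly(I:C), of each gene list with at least 8 tested genes (number of genes in parentheses), fitted over the 3 pairs (diamonds) and within pairs 6, 7 and 8 (coloured points). Interferon-stimulated genes are at -0.01, -0.42 and -0.20 in the pairs, while monocyte, granulocyte and erythroid lists change sign between pairs.

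Whether loss of Fancg acted differently after poly(I:C) than after PBS was tested as an interaction. The contrast took its group means from the 14 libraries without the transgene, and the spread was estimated over all 24 libraries. limma called 0 of 12628 genes (0%), with 128 at an unadjusted p under 0.05. edgeR and DESeq2 called 0 each, with 111 and 80. Grb10 had the smallest p among genes with a mean of at least 50, with an interaction of -1.21 ± 0.35 on the log2 scale (limma adjusted p = 1). Its difference was -0.77 ± 0.27 with poly(I:C) and 0.44 ± 0.23 with PBS.

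The next 4 genes went the other way, all of them higher in FancgKO with poly(I:C) and lower with PBS. Hip1, an endocytic adaptor gene, was at 0.37 ± 0.25 with poly(I:C) and -0.55 ± 0.21 with PBS. Mkl2, a coactivator of serum response factor, was at 0.10 ± 0.17 with poly(I:C) and -0.52 ± 0.15 with PBS. Slc9a9 and Gzf1 were at 0.41 and 0.25 with poly(I:C), and at -0.39 and -0.39 with PBS. Pmaip1 had an interaction of -1.83 with a limma p of 0.0137 before adjustment, from -0.22 ± 0.52 with poly(I:C) and 1.61 ± 0.45 with PBS.

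Genes that respond to poly(I:C) were taken from the 10 libraries with the Mdm4 transgene, which are not part of the comparison. Of the 143 genes raised there, 36 were higher and 107 lower in FancgKO than in WT after poly(I:C), with a median of -0.12 and pair medians of 0.05, -0.38 and 0.09. Of the 162 lowered there, 102 were higher and 60 lower, with a median of 0.06 and pair medians of -0.08, 0.27 and -0.03. In both lists pair 7 carried the shift and pairs 6 and 8 were near 0. The median response of the raised genes to poly(I:C) was 0.58 in FancgKO and 0.97 in WT, and that of the lowered genes -0.58 in FancgKO and -0.84 in WT. With PBS the raised genes were already 118 higher and 25 lower in FancgKO than in WT (median 0.19), and the lowered genes 22 higher and 140 lower (median -0.24). These PBS differences are larger than those with poly(I:C). The responses share the poly(I:C) libraries with the comparison, and their difference was not tested.

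The same loss of Fancg after poly(I:C) was also measured in cells with the Mdm4 transgene, with 2 libraries against 2. limma called 0 of 12628 genes (0%) for FancgKO_Mdm4Tg against Mdm4Tg, with 32 under 0.05 before adjustment. edgeR and DESeq2 also called 0, with 61 and 39 before adjustment. Plag1 was at -1.30 ± 0.53, Tjp1 at 0.95 ± 0.42 and Sdc1 at -1.57 ± 0.69 there. Grb10 was at -0.15 ± 0.33, Numb at 0.02 ± 0.23, Usp18 at 0.16 ± 0.42 and Slc43a3 at 0.09 ± 0.14.

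Genes near Fancg on chromosome 4, the region most closely linked to the deleted allele, are given apart. Within 10 Mb of Fancg, 104 other genes were tested, 47 higher and 57 lower, with a median of -0.01. FancgKO libraries all lay below WT libraries in 5 of them (4.81%, against 1.33% of all genes) and above in 1 (0.962%, against 1.39%). These were Hint2, Glipr2, Fam219a, 3110043O21Rik and Smim8 on the lower side and Kif24, a ciliary kinesin gene, on the higher. Hint2, the nearest of them, was at -0.47 with poly(I:C) but at 0.17 with PBS, and at 0.28 and 0.20 with the transgene under poly(I:C) and PBS. Glipr2 was at -0.17 with poly(I:C) and -0.23 with PBS, and at 0.02 in both comparisons with the transgene. Smim8, 8.23 Mb from Fancg, had 5.99, 5.43 and 13.3 counts in FancgKO libraries 6, 7 and 8, against 22.3, 13.3 and 17.8 in WT libraries (-1.10 ± 0.50), and was lower in 8 of 8 further pairs.

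Fam219a, 1.46 Mb away, had 2.00, 2.17 and 2.28 counts in FancgKO libraries, against 7.42, 4.44 and 5.01 in WT libraries, and its difference was -1.05 with poly(I:C) and -1.53 with PBS. Between 10 and 40 Mb the groups stood apart downward in 3 of 117 genes (2.56%, against 1.33% of all genes). Plag1, at 39.09 Mb, was among them. Upward they stood apart there in 1 (0.855%, against 1.39%). Beyond 40 Mb the groups stood apart downward in 5 of 501 (0.998%) and upward in 7 (1.4%). Zfp992, a zinc-finger gene 103.45 Mb from Fancg on the same chromosome, had 31.0, 21.7 and 31.9 counts in FancgKO libraries 6, 7 and 8, against 36.3, 51.8 and 53.8 in WT libraries (-0.73 ± 0.28) and was lower in 7 of 8 further pairs. Whether a stretch of chromosome 4 around Fancg differs in origin between FancgKO and WT libraries was not tested.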

How the data were processed

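The deposited table gives a signal for each gene in each library, which its name calls normalised counts of the authors. The submitters' processing notes list STAR and mm10. The counter, the normalisation tool and the handling of shared or duplicate reads are not given in the sources used here. Within a library all values were multiples of the smallest one above 0, and dividing by it gave whole reads for 100% of values (tolerance 1e-06). Depth was 807686 to 8229715 reads over the 24 libraries and 1697596 to 8178648 in the 6 compared. The table named 16217 of 26267 genes, the GRCm38 reference annotation, also the source of coordinates, named 10006 more, and 44 had no name.

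Log2(normalised count + 1) was fitted over all 24 libraries, as 8 groups, by limma 3.58.1 with a variance trend under R 4.3.3, for 12628 genes with at least 10 in at least 2 libraries. Adjustment followed Benjamini-Hochberg, with a threshold of 0.05. Fold changes on this scale understate those of low genes. edgeR 4.0.16 and DESeq2 1.42.0 were run on the recovered reads. Replicate numbers come from the sample titles. Once group means were removed, FancgKO and WT libraries of numbers 6, 7 and 8 correlated at 0.396, 0.392 and 0.617. All other pairings correlated at -0.389 to -0.060, so values are also given pair by pair. The main fit had no term for the replicate number. Differences, standard errors, intervals and limma p-values come from it unless the replicate block or another fit is named. The replicate block changed no call in the FancgKO against WT comparison with poly(I:C).

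Genes were named by rule: with a mean of at least 50, the 10 smallest p-values per direction, 2 members of each list and the 5 smallest interaction p-values, and Fancg, Mdm4, Mdm2, Trp53, Cdkn1a, Kit, Ly6a, Xist and Ddx3y at any level. Plag1, Sdc1, Ptpn14, Usp18, Pmaip1, Eda2r, Smim8, Zfp992, the genes near Fancg and the further list members were named after their values were seen. The comparison and the gene lists were chosen with earlier results of these data known. The fits were also run on simulated counts. These held no differences between replicate numbers, so that run cannot show how the fits behave with the pairing seen here. Tables and figures were made with python 3.11.15, pandas 2.3.3 and matplotlib 3.10.9. A few genes are not reported here.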

Additional observations from a re-analysis of the deposited data

Results flagged for a closer look

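Groups of 4 libraries, FancgKO and WT with PBS, were screened for a single library far from the rest. The genes screened were Fancg, Mdm4, Mdm2, Trp53, Cdkn1a, Kit, Ly6a, Xist, Ddx3y, Plag1 and Tjp1. For each gene, chance alone meets the criterion in about 1 in 20 groups, so with this many genes such values can arise by chance. Both values that the screen picked come from 1 WT library with PBS, outside the poly(I:C) comparison. Mdm4 was at 758.3 normalised counts in WT replicate 6 with PBS, below the other WT libraries with PBS. Xist was at 24.78 in the same library, above the others of its group. Groups of 3, among them FancgKO and WT with poly(I:C), are too small for this screen.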

How the results depend on the processing

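The count of 0 genes in the main comparison held under all 33 alternatives, which included edgeR, DESeq2, the replicate block, other scalings and filters, and leaving out each library; the smallest adjusted p among them was 0.0999, without the filter on low values. The unadjusted count moved more, to 126 with the replicate block, 348 with the block in the 6 libraries alone and 464 without the filter. The interaction with PBS gave 1 gene, Xist, under edgeR with the replicate block (edgeR adjusted p = 0.0281). FancgKO_Mdm4Tg against Mdm4Tg gave 0 to 1 genes when libraries were left out, the 1 being Mir5099 without Mdm4Tg replicate 8 in the fit with the block (limma adjusted p = 0.0181).

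Every setting for the other 18 libraries was chosen after seeing the data, as were the Y-linked covariate, thinned reads and the omission of whole pairs. The count of 2 became 15 with the replicate block, 14 with the block and the Y-linked sum, 7 with the title suffix, 4 without the filter, 4 with DESeq2 and 20 with edgeR and the block. It ran from 0 to 16 when libraries were left out, and was 0 in the fit without the block on leaving out Mdm4Tg replicate 7 with PBS, Mdm4Tg replicate 7 with poly(I:C) or FancgKO_Mdm4Tg replicate 8 with poly(I:C). Plag1 passed in 49 and Tjp1 in 45 of 52 settings.

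Directions turned for 8 genes with small differences. Ly6a was 0.020 with quantile scaling, 0.106 with thinned reads, 0.021 with the Y-linked covariate and block, 0.416 without pair 8, and -0.290 to 0.396 on leaving out single libraries. Kit was -0.065 with array weights, -0.0036 with the Y-linked covariate and block, -0.086 without pair 7, and -0.135 to 0.098. Pmaip1 was 0.123 with array weights, 0.065 with edgeR, 0.038 with DESeq2, 0.039 with edgeR and the block, 0.386 without pair 7, and -0.690 to 0.315. Mdm2 was -0.084 without pair 6 and Mdm4 -0.0082 without pair 8. Single libraries moved Cdkn1a from -0.0028 to 0.526, Mdm2 from -0.086 to 0.253, Mdm4 from -0.00149 to 0.182, Trp53 from -0.0035 to 0.202 and Mkl2 from -0.035 to 0.221. The causes were not tested. In 33 of 33 alternatives the median of interferon-stimulated genes (-0.33 to -0.08) and of ribosomal protein genes (-0.26 to -0.02) stayed negative, and that of arrest and repair targets (0.10 to 0.21) positive. The monocyte median ran from -0.66 to 0.30. Depth limits the low genes, as the intervals by level show.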
